A study of Mus musculus with 8 samples.

Results

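The mesothelial identity genes are 10 genes whose products mark the mesothelium, the thin cell layer that lines the peritoneal, pleural and pericardial cavities and from which mesothelioma arises. They are Msln, Wt1, Upk3b, Upk1b, Lrrn4, Calb2, Pdpn, Muc16, Bnc1 and Gpm6a, chosen by name as markers of this lineage without keratins, and each was found once among the 35275 genes of the count table. Bulk RNA sequencing measured them in 8 mouse tumours. In 4 primary peritoneal tumours (13, 14A, 59 and 61) the mice carried Pak2 f/f and the tumours are described as Pak2 -/- (written Pak2-/- from here), and a secondary tumour, 14B, carries the same genotype. The primary ones were set against 3 primary peritoneal tumours (19, 20 and 127) with wild-type Pak2 (Pak2 +/+). All 8 share conditional Nf2 f/f and Cdkn2a f/f alleles, described as Nf2-/- and cdkn2a-/- in the tumours, genes of a Hippo pathway regulator and of cell cycle inhibitors, and all arose after adenovirus with Cre recombinase was injected into the peritoneum. No label gives the age, the sex or the site of the secondary tumour, or ties tumours to animals, so p-values measure the spread between these samples. The promoter that drives Cre is not named in the labels, so whether recombination was restricted to mesothelium is not known here.

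As background, mesothelial cells are epithelial-like cells of mesodermal origin that carry keratins together with surface glycoproteins such as mesothelin and with the transcription factor WT1. Calretinin (Calb2), WT1, podoplanin and mesothelin are used in human pathology to recognise mesothelioma, and these markers are commonly retained in epithelioid tumours and weaker in sarcomatoid ones. In bulk tumour RNA, fewer cells of a type and less RNA per cell cannot be told apart, and neither can the tumour cells and normal mesothelium taken with them.

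Total counts were lowest in tumour 14B (13469851) and highest in tumour 14A (20402401). Levels are given as CPM, counts scaled with TMM factors to the counts in the 15412 genes that passed the low-count filter. That filter was run on the primary tumours. These genes held 11141192 of the 13469851 counts in tumour 14B and 19667212 of the 20402401 in tumour 14A. A floor of 3 counts was used for an observed 0. This floor corresponds to 0.139 to 0.193 CPM in primary tumours and to 0.311 CPM in the secondary one. Pak2 transcripts stood at 131 to 238 CPM in Pak2-/- primary tumours, at 239 CPM in secondary tumour 14B and at 90.1 to 128 CPM in the wild-type tumours, so the whole-gene counts, which include reads outside any deleted exon, did not show a loss and the label is used as given. Several libraries stood apart in RNA of other tissues. The 5 exocrine pancreas markers summed to 22203 CPM in tumour 14A and 159989 CPM in tumour 14B, and to at most 51.8 CPM in any other tumour. The 12 skeletal muscle markers summed to 13.5 to 823 CPM in the Pak2-/- primary tumours and to 2931, 35112 and 24220 CPM in wild-type tumours 19, 20 and 127. The Y-linked gene Ddx3y stood at 85.4 to 104 CPM in the Pak2-/- primary tumours and at 1.62, 1.24 and 116 CPM in tumours 19, 20 and 127, and the X-inactivation gene Xist at 0.0619 to 1.33 CPM in the Pak2-/- primary tumours and at 151, 459 and 26.6 CPM in tumours 19, 20 and 127. Tumour 127 thus held transcripts of both genes, and for tumours 19 and 20 sex and genotype cannot be told apart.

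**Figure D1:**
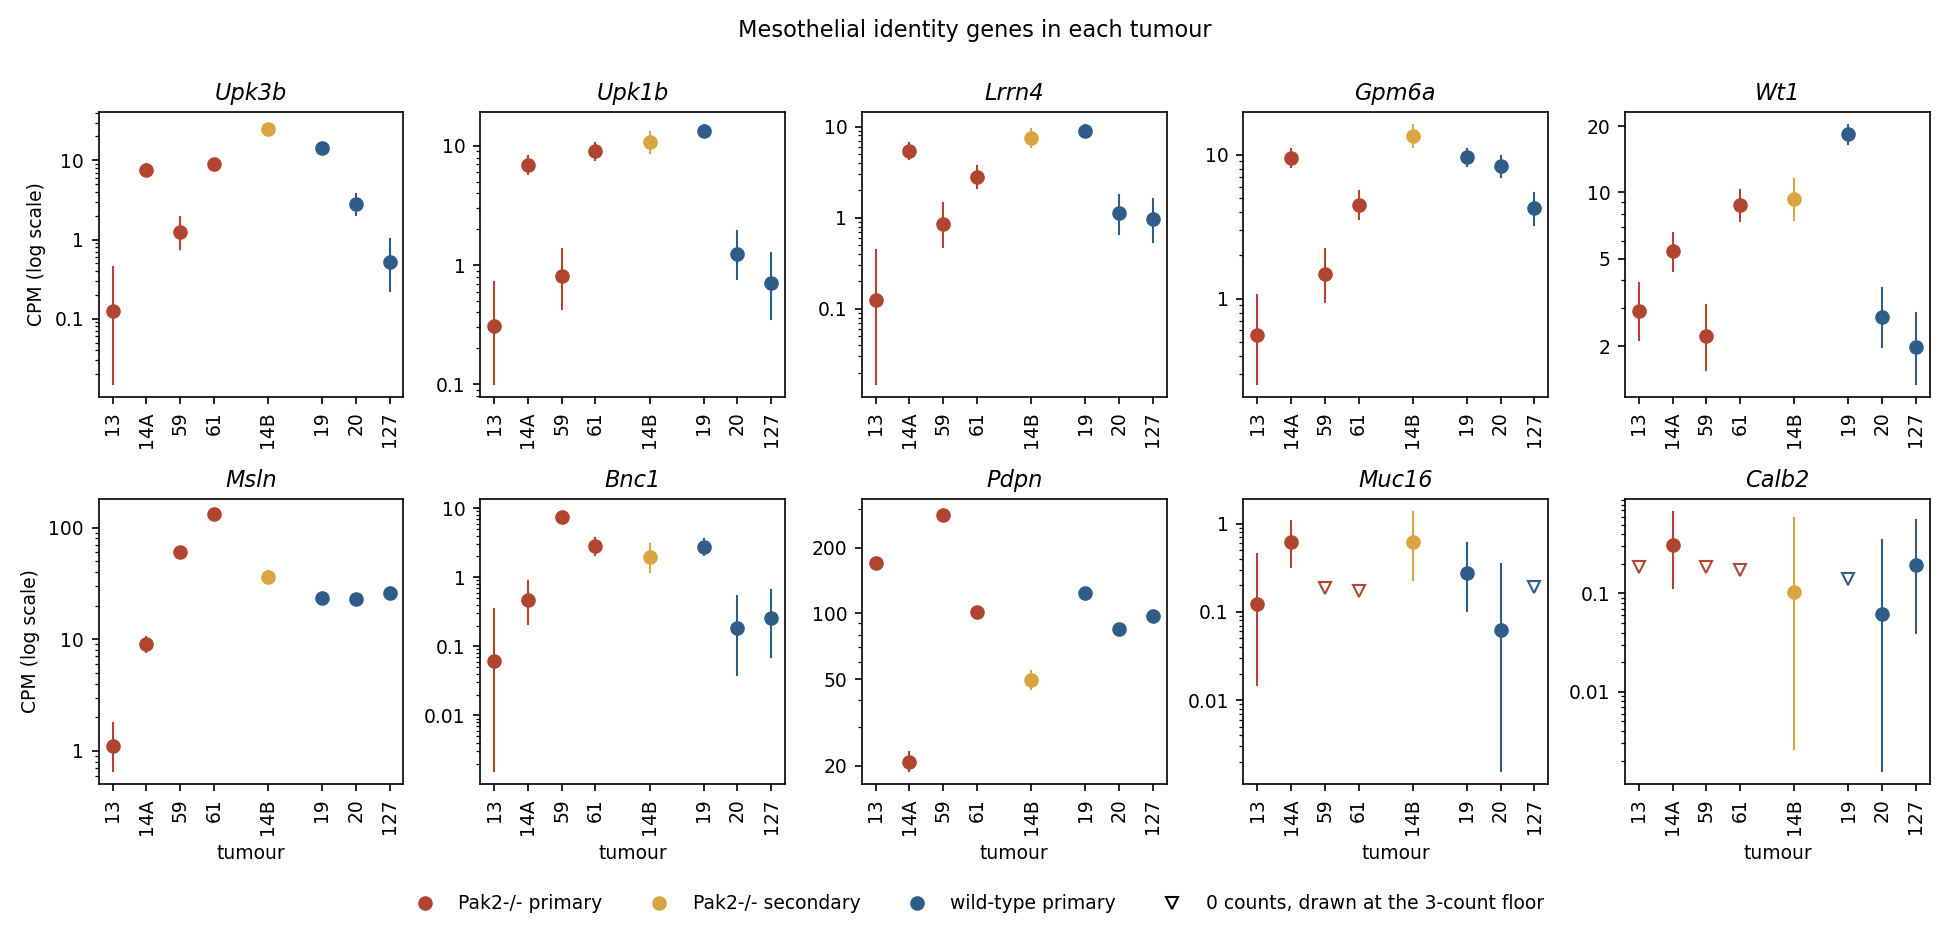
CPM (log axis) of the 10 mesothelial identity genes in each tumour, with vertical lines for exact 95% Poisson intervals of the count, which cover counting error only, and open triangles at the 3-count floor for 0 counts. The Pak2-/- primary and wild-type tumours overlap in all 10 genes, and Upk3b, Upk1b and Lrrn4 are lowest in tumour 13 and high in tumours 14A, 61, 14B and 19.

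The uroplakins and Lrrn4 gave the clearest common pattern, which ran across the genotypes and not between them. Upk3b, a uroplakin made by mesothelium as well as by urothelium, stood at 0.124, 7.66, 1.23 and 8.89 CPM in Pak2-/- primary tumours 13, 14A, 59 and 61, at 24.6 CPM in secondary tumour 14B, and at 14.2, 2.79 and 0.513 CPM in wild-type tumours 19, 20 and 127. Tumours 14A, 61, 14B and 19 were high, tumours 13 and 127 were low, and the groups overlapped. Upk1b, a tetraspanin that pairs with the type 3 uroplakins in urothelial plaques, stood at 0.310, 6.94, 0.802 and 9.01 CPM in tumours 13, 14A, 59 and 61, at 10.8 CPM in tumour 14B and at 13.4, 1.24 and 0.706 CPM in tumours 19, 20 and 127. The same 4 tumours were high. Lrrn4, a membrane protein with leucine-rich repeats, stood at 0.124, 5.40, 0.864 and 2.83 CPM in tumours 13, 14A, 59 and 61, at 7.57 CPM in tumour 14B and at 9.04, 1.12 and 0.963 CPM in tumours 19, 20 and 127, again with its lowest level in tumour 13 and overlapping groups. The level of Upk3b in tumour 13 rests on 2 counts, with an exact Poisson interval of 0.0150 to 0.447 CPM, and still lies below the interval of 7.55 to 10.4 CPM in tumour 61.

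Likeness between genes was measured as the root mean square difference of their log2 CPM over the 8 tumours after each gene's mean was subtracted. The closest of the 45 pairs of members was Upk1b and Lrrn4 (0.57), followed by Upk3b and Upk1b (0.64) and by Upk3b and Lrrn4 (0.78). Among all 12169 other protein-coding genes searched, Upk1b was nearest to Cdh1, which encodes E-cadherin, at 0.45, then to Lrrn4 itself and to St14, the membrane serine protease matriptase, at 0.62. Upk3b was nearest to Upk1b, then to Pkhd1l1 (0.67) and to the desmosomal cadherin gene Dsg2 (0.69). Lrrn4 was nearest to Proser2 (0.47) and to Rab11fip1 (0.48), which encodes an effector of Rab11 in recycling endosomes, with Upk1b in the third place.

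The 3 uroplakin genes whose products are made mainly in the bladder lining were almost absent (Upk2 and Upk3a) or low (Upk1a). Upk2 had 0 counts in every tumour but wild-type tumour 20, with 3, and Upk3a had 0 in every tumour but wild-type tumour 19, with 2. Upk1a stood at 0.0619 to 1.10 CPM in Pak2-/- primary tumours, at 0.415 CPM in secondary tumour 14B and at 0.232 to 0.321 CPM in the wild-type tumours. Upk1b and Upk3b were therefore measured beside near-zero counts of Upk2 and Upk3a and low counts of Upk1a, at most 19, in tumour 61. The related gene Upk3bl had 1 count in all, in tumour 14B.

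Gpm6a and Wt1 followed the uroplakins in part. Gpm6a, a membrane proteolipid best known from neurons, stood at 0.557, 9.56, 1.48 and 4.51 CPM in tumours 13, 14A, 59 and 61, at 13.6 CPM in tumour 14B and at 9.60, 8.32 and 4.24 CPM in tumours 19, 20 and 127. It shared the low levels in tumours 13 and 59 but was high in wild-type tumour 20, where the uroplakins were low. Wt1, a zinc-finger transcription factor required for the development of mesothelium, kidney and gonads, stood at 2.91, 5.40, 2.22 and 8.78 CPM in tumours 13, 14A, 59 and 61, at 9.33 CPM in tumour 14B and at 18.3, 2.73 and 1.99 CPM in tumours 19, 20 and 127. Tumour 19 was highest, and Wt1 was the tested member with the narrowest range over the 8 tumours, 3.13 on the log2 scale. The antisense gene Wt1os starts beside Wt1 on the other strand. In GENCODE M21 it shared no exon sequence with Wt1, and the annotation release used for counting is not given. Adding its counts to those of Wt1 gave a log2 fold change of -0.62, which does not test whether reads were shared.

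Gpm6a was nearest to Proser2 (0.39), to Prkcz (0.51), an atypical protein kinase C of cell polarity, and to the lipoprotein lipase gene Lpl (0.53). Wt1 was nearest to Tjp3 (0.40), a tight junction scaffold, to Smpd3 (0.43), a neutral sphingomyelinase, and to the replication gene Mcm10 (0.46). The distances from Lrrn4 were 0.81 for Gpm6a and 1.02 for Wt1, and that between Wt1 and Upk3b was 1.43.

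Promoters were read for all members with a matched start, whether or not their levels moved together, to show what sequence lies upstream. RefSeq starts on GRCm38.p6 were matched for 6 of the 10 members, with 2 starts for Gpm6a; Msln, Wt1, Upk1b and Calb2 had none. The 250 bases upstream of each start were searched on both strands for CATTCC, the core of the motif bound by TEAD factors, the transcription factors of the Hippo pathway in which Nf2 acts. This core was found in the windows of Upk3b, Lrrn4 and the distal start of Gpm6a and in 12.6% of all 32851 windows. It was absent from those of Pdpn, Muc16, Bnc1 and the internal start of Gpm6a, at which the counted gene begins. The WT1 core CGTGGGNG, the motif AGATAA of the factor family to which Gata6 belongs and the E2F core TTTCCCGC were in none of the 7 windows and in 4.16%, 9.99% and 0.895% of all windows. A match is a description of letters and not of binding. The windows of Upk3b (chr5:136038246-136038495, plus strand), Lrrn4 (chr2:132880863-132881112, minus strand), the distal start of Gpm6a (chr8:54779184-54779433, plus strand) and, as the member with the most different pattern, Pdpn (chr4:143299565-143299814, minus strand) are printed 5′ to 3′, with CATTCC or its reverse complement in capitals.
Upk3b: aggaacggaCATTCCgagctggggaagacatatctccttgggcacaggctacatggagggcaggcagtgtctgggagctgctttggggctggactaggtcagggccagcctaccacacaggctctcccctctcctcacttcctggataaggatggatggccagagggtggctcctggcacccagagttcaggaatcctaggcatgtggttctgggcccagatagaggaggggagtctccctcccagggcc
Lrrn4: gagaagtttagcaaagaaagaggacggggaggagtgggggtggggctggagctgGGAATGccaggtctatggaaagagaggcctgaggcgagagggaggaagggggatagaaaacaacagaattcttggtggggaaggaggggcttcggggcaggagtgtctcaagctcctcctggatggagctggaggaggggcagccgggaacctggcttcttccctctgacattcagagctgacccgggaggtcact
Gpm6a: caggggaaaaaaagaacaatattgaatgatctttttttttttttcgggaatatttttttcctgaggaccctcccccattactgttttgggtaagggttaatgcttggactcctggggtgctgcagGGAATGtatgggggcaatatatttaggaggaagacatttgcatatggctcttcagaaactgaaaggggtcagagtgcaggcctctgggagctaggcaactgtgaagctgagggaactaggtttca
Pdpn: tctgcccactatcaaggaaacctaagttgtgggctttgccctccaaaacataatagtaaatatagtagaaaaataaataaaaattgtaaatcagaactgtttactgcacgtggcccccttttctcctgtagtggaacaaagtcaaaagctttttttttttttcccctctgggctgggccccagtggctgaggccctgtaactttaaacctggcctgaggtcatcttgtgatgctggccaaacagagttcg
The GC content was 60.8% in the Upk3b window, 59.2% in that of Lrrn4, 44.4% in that of Gpm6a and 43.2% in that of Pdpn, beside a median of 52.4% over all windows. Counts in the deposited table were assigned to a shorter Gpm6a gene. It begins at the internal start at 54954728 on chromosome 8, where the RefSeq gene begins at 54779434. Reads from exons upstream of the internal start were thus not in its count. For Lrrn4, on the minus strand, the RefSeq gene reaches to 132894010 on chromosome 2, upstream of the printed window. The counted Lrrn4 gene reaches to 132880891, inside that window.

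**Figure D2:**
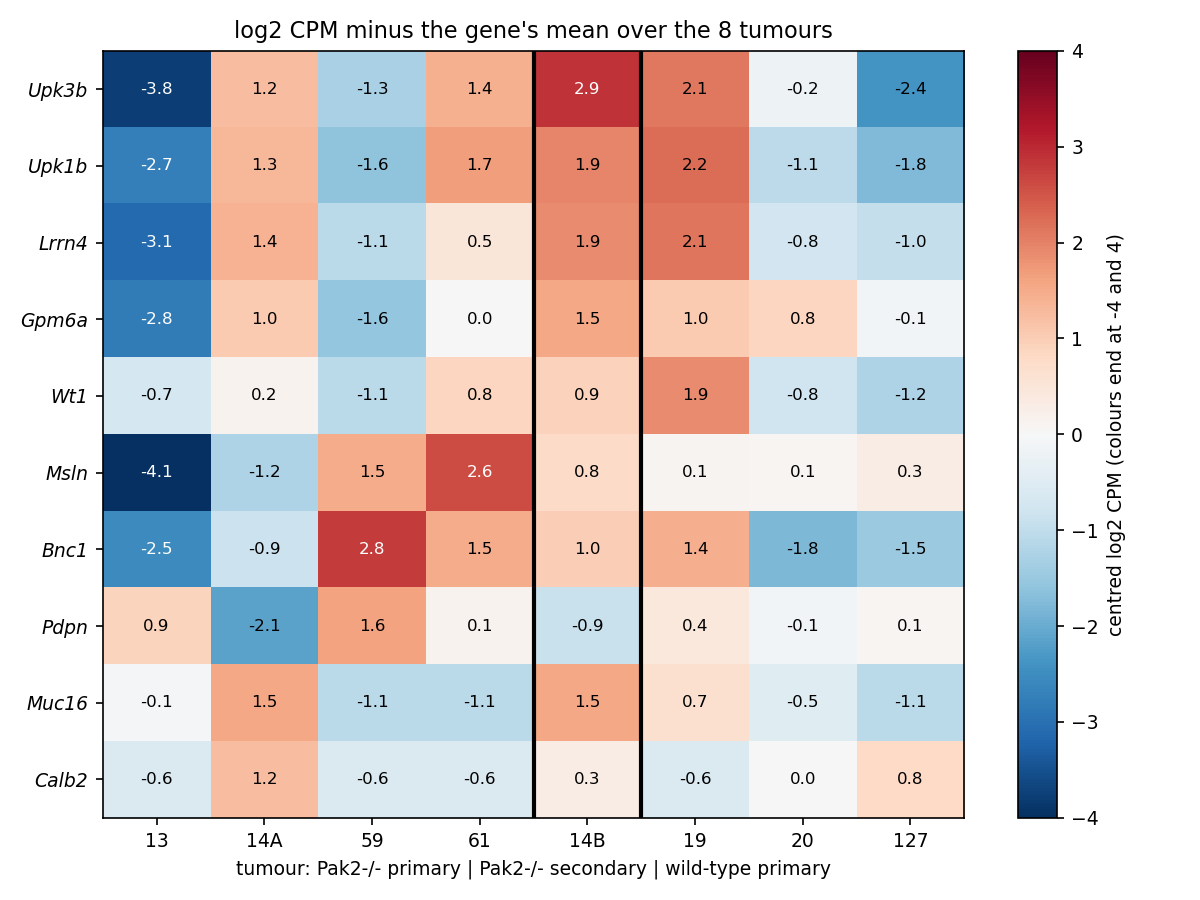
Log2 CPM of each member minus its mean over the 8 tumours, with Pak2-/- primary tumours left of the first line, secondary tumour 14B between the lines and wild-type tumours on the right. Tumour 13 is low for Upk3b, Upk1b, Lrrn4, Gpm6a, Msln and Bnc1 but not for Pdpn, and tumours 59 and 61 are high for Msln and Bnc1.

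Msln and Bnc1 were highest in other tumours than the uroplakins. Msln encodes mesothelin, a lipid-anchored surface glycoprotein that binds the mucin MUC16. It stood at 1.11, 8.99, 60.5 and 132 CPM in Pak2-/- primary tumours 13, 14A, 59 and 61, at 36.4 CPM in tumour 14B and at 23.3, 22.8 and 26.2 CPM in wild-type tumours 19, 20 and 127. The wild-type tumours lay close together, whereas the Pak2-/- tumours ran from far below to far above them, a 118-fold range over the 7 primary tumours. Its paralogue Mslnl had at most 7 counts, in tumour 59.

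Bnc1 encodes basonuclin 1, a zinc-finger protein of basal keratinocytes and germ cells. It stood at 0.0619, 0.463, 7.34 and 2.83 CPM in tumours 13, 14A, 59 and 61, at 1.97 CPM in tumour 14B and at 2.78, 0.186 and 0.257 CPM in tumours 19, 20 and 127, with 1 to 119 counts behind each value. Tumours 59, 61 and 19 were high and tumours 13, 20 and 127 low. Its paralogue Bnc2 was transcribed more evenly, at 33.4, 3.60, 20.1 and 27.6 CPM in tumours 13, 14A, 59 and 61, at 7.98 CPM in tumour 14B and at 21.0, 17.0 and 17.2 CPM in tumours 19, 20 and 127. Msln and Bnc1 were each other's closest members, though at 1.33 they were less alike than the uroplakins were. The nearest genes to Msln were the homeobox gene Mkx (0.72), Fmo2 (0.81), a flavin monooxygenase, and Pawr (0.88). Those nearest to Bnc1 were Mal2 (0.71), the basement membrane collagen gene Col4a6 (0.90) and the carbonic anhydrase gene Car2 (0.999).

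Pdpn was low in both tumours numbered 14, where the uroplakins were high. It encodes podoplanin, a mucin-type glycoprotein that binds the platelet receptor CLEC-2 outside the cell and ezrin and moesin inside, and that lymphatic endothelium and fibroblasts also make. Pdpn stood at 170, 20.9, 283 and 101 CPM in tumours 13, 14A, 59 and 61, at 49.6 CPM in tumour 14B and at 124, 85.0 and 97.3 CPM in tumours 19, 20 and 127. It was lowest in tumours 14A and 14B and was the only member of the 8 tested that was high in tumour 13. The 8 fibroblast markers summed to 22644, 2525, 24193 and 27850 CPM in tumours 13, 14A, 59 and 61, to 4519 CPM in tumour 14B and to 20645 to 23354 CPM in the wild-type tumours, with none at 0 in any tumour. The 4 lymphatic endothelial markers summed to 61.7, 296, 145 and 149 CPM in tumours 13, 14A, 59 and 61, to 138 CPM in tumour 14B and to 138 to 331 CPM in the wild-type tumours, with none at 0. The fibroblast sum was low in the same tumours as Pdpn, whereas the lymphatic sum was high in tumour 14A and lowest in tumour 13, and the part of these cells in the Pdpn level was not tested. The genes nearest to Pdpn were Ppap2b (0.19), a lipid phosphatase gene, Hspa12b (0.21), a heat shock protein gene of endothelium, and Mcam (0.24), an adhesion molecule of endothelium and pericytes.

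Calb2 and Muc16 had few or no counts in all 8 tumours. Calb2 was thus at or near the limit of detection, whereas most of the Muc16 gene was not counted, so its level is not known here. Calb2, which encodes the calcium-binding protein calretinin, had 0, 6, 0 and 0 counts in Pak2-/- primary tumours 13, 14A, 59 and 61, 1 count in tumour 14B and 0, 1 and 3 counts in wild-type tumours 19, 20 and 127. Its highest level, in tumour 14A, was 0.308 CPM, with an exact Poisson interval of 0.113 to 0.671 CPM. The related Calb1 had 0 counts in every Pak2-/- tumour and 1, 4 and 5 counts in tumours 19, 20 and 127.

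Muc16, the large membrane mucin that carries the CA125 antigen in humans, had 2, 12, 0 and 0 counts in tumours 13, 14A, 59 and 61, 6 counts in tumour 14B and 6, 1 and 0 counts in tumours 19, 20 and 127. The gene that was counted spans 17431 bases on chromosome 9 (18495455 to 18512885) with 1035 bases of summed length, whereas the RefSeq gene of the same build spans 179377 bases (18495445 to 18674821), so most of Muc16 was not counted under this name. Of the other membrane mucin genes, Muc1 stood at 0.116 to 3.80 CPM in Pak2-/- primary tumours, at 29.1 CPM in secondary tumour 14B and at 1.54 to 8.11 CPM in the wild-type tumours, highest in tumour 14B. Muc4 reached at most 41 counts, in tumour 19.

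Levels of different genes were compared per length as TPM, which depend on the gene lengths of the deposited table and, in the tumours numbered 14, on the pancreas RNA that enters the total. Pdpn had the highest TPM of the 10 members in 7 of 8 tumours and Msln in the remaining one, tumour 61. In the primary tumours the median TPM was 134 for Pdpn, 27.1 for Msln, 3.26 for Gpm6a, 2.57 for Upk3b, 2.29 for Wt1, 1.51 for Upk1b, 0.649 for Lrrn4, 0.186 for Bnc1, 0.129 for Muc16 and 0 for Calb2. The ranges of neighbours in this order overlapped throughout. Those of Pdpn and Msln ran from 21.5 to 408 and from 1.28 to 151 TPM, and those of Gpm6a, Upk3b, Wt1 and Upk1b, which lay within 0.128 to 18.6 TPM, crossed each other. By TPM in tumour 13 Pdpn stood at 227 and Msln at 1.28, and in tumour 14A they stood at 21.5 and 7.96.

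Setting the 4 Pak2-/- primary tumours against the 3 wild-type tumours, 0 of the 8 members that passed the filter on low counts were called by the quasi-likelihood test of edgeR, with p adjusted by Benjamini-Hochberg across the 15412 genes tested. Of all genes 11 were called (0.0714%). At an unadjusted p under 0.05 there were again 0 members, against 12.9% of all genes, 4.39% higher and 8.55% lower. DESeq2 called 0 members and 7.46% of all genes, limma-voom 0 members and 0.162%, and limma-voom with quality weights 0 members and 6.16%. The groups did not overlap in 0 of the 8 tested members and in 14.0% of the tested genes. Calb2 and Muc16, not tested, had 0 counts in tumours of both groups and so could not be apart. Of the tested members 3 had a higher and 5 a lower estimate in the Pak2-/- tumours, with a median log2 fold change of -0.31 beside 0.06 over all tested genes. A p above the threshold does not show equal levels here, since the standard errors (SE) ran from 0.73 to 1.52 on the log2 scale.

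The estimates followed the pattern of single tumours. Msln averaged 50.7 ± 60.3 CPM in the Pak2-/- primary tumours and 24.1 ± 1.82 CPM in the wild-type tumours (SD, n = 4 and 3), a log2 fold change of 1.08 (SE 1.24) with an adjusted p of 0.756 by edgeR. Without tumour 61 it was -0.01. Bnc1 averaged 2.67 ± 3.34 CPM in Pak2-/- primary tumours and 1.07 ± 1.48 CPM in wild-type ones (log2 fold change 1.31, SE 1.52), and it was 0.04 without tumour 59 and 3.57 without tumour 19. Pdpn averaged 144 ± 111 CPM in Pak2-/- primary tumours and 102 ± 19.8 CPM in wild-type ones (log2 fold change 0.52, SE 0.73), and -0.07 was left without tumour 59. The SD of Msln and of Pdpn was larger among the Pak2-/- tumours than among the wild-type tumours, a difference in spread that was not tested.

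Of the 5 lower estimates 4 turned positive without wild-type tumour 19. Upk3b averaged 4.48 ± 4.44 CPM in the Pak2-/- primary tumours and 5.85 ± 7.35 CPM in the wild-type tumours, a log2 fold change of -0.38 (SE 1.38), and 1.45 was obtained without tumour 19. Upk1b, with 4.27 ± 4.37 CPM in Pak2-/- primary tumours and 5.10 ± 7.15 CPM in wild-type ones, moved to 2.13 from -0.25 (SE 1.35) when that tumour was left out. Without tumour 13, Upk3b was at 0.026 and Upk1b at 0.13, and Upk1b was at 0.084 without tumour 59. Lrrn4, with 2.30 ± 2.36 CPM in Pak2-/- primary tumours and 3.71 ± 4.62 CPM in wild-type ones, was at -0.67 (SE 1.22) with tumour 19 and at 1.16 without it. Wt1, with 4.83 ± 2.97 CPM in Pak2-/- primary tumours and 7.68 ± 9.22 CPM in wild-type ones, was at -0.66 (SE 0.87) with it and at 1.05 without it. Gpm6a, with 4.03 ± 4.06 CPM in Pak2-/- primary tumours and 7.38 ± 2.80 CPM in wild-type ones, had a log2 fold change of -0.86 (SE 0.88), which stayed below 0 whichever tumour was left out, from -1.74 to -0.50. Adjusted p values of these 5 genes by edgeR ran from 0.723 (Gpm6a) to 0.957 (Upk1b).

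**Figure D3:**
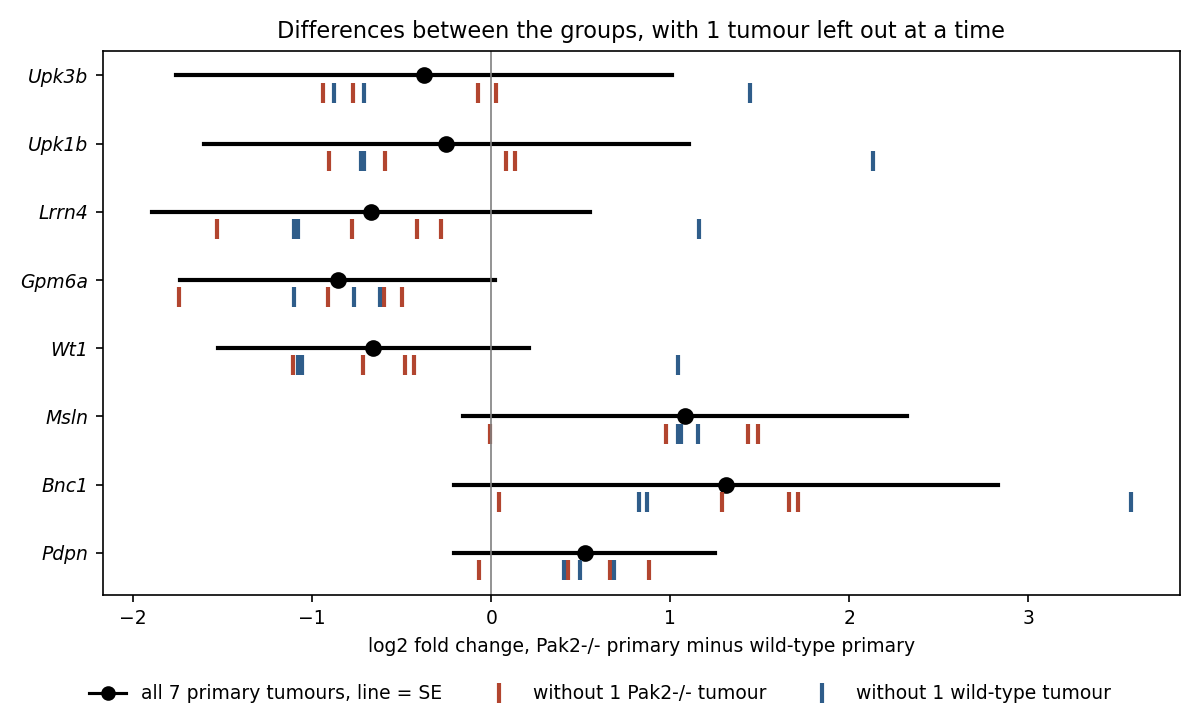
Log2 fold changes (Pak2-/- primary minus wild-type) of the 8 tested members by edgeR, with black lines for 1 SE and coloured ticks for the estimate after 1 tumour is left out. The estimates of Upk3b, Upk1b, Lrrn4 and Wt1 turn positive without wild-type tumour 19, and that of Msln reaches -0.01 without tumour 61.

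The spread over tumours was wide beside that of other genes. The log2 CPM of Msln spanned 6.74 over the 8 tumours, more than that of 95.7% of the tested genes, and that of Upk3b 6.65, more than that of 95.5%. The spans were 5.35 for Bnc1, 5.22 for Lrrn4, 4.97 for Upk1b, 4.34 for Gpm6a and 3.75 for Pdpn, beside a median of 1.77 over all 15412 tested genes. Low counts widen such spans, and all genes were ranked together whatever their level.

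Of the 10 members, 6 had their lowest level among the primary tumours in tumour 13, where 19.1% of all tested genes had theirs: Msln, Upk3b, Upk1b, Lrrn4, Bnc1 and Gpm6a. Tumour 19 held the highest level of 5 members (Wt1, Upk3b, Upk1b, Lrrn4 and Gpm6a) and of 16.1% of all tested genes. The mean log2 CPM over the 10 members was -0.40, 1.91, 1.31 and 2.25 in tumours 13, 14A, 59 and 61, 2.73 in tumour 14B and 2.69, 1.12 and 0.76 in tumours 19, 20 and 127. Tumour 13 was lowest and tumours 14B and 19 highest in this mean.

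The secondary tumour 14B had a higher CPM than primary tumour 14A in all 8 tested members. On this scale each interval of the ratio lay above 1, that of Lrrn4 only just. The share of all tested genes that were higher in tumour 14B was not counted, so this is not read as particular to the members. From tumour 14A to 14B the mean log2 CPM of the keratins also rose, from 2.13 to 3.37. That of the endothelial markers fell, from 5.03 to 4.85, and that of the lymphatic endothelial markers from 5.57 to 4.82. CPM leave out counts in genes that were not tested, a larger part of the total in tumour 14B, and the ratios rest on that denominator. Dividing the CPM of tumour 14B by that of 14A gave 4.05 for Msln (exact 95% interval 3.37 to 4.88), 3.21 for Upk3b (2.60 to 3.96) and 2.37 for Pdpn (2.07 to 2.71). It was 4.26 for Bnc1 (1.84 to 10.7), 1.73 for Wt1 (1.29 to 2.31), 1.55 for Upk1b (1.19 to 2.02), 1.42 for Gpm6a (1.13 to 1.79) and 1.40 for Lrrn4 (1.03 to 1.91). Per length, as TPM, which take the pancreas RNA into the total, Lrrn4 and Gpm6a were lower in tumour 14B (2.48 and 4.95 TPM) than in tumour 14A (2.72 and 5.36 TPM), and Upk1b was at 7.41 TPM in tumour 14B and 7.34 TPM in tumour 14A. The direction thus depended on the scaling for Lrrn4 and Gpm6a, while Msln, Upk3b, Pdpn, Bnc1 and Wt1 were higher in tumour 14B on both scales. The intervals cover counting error between 2 libraries and not the difference between primary and secondary tumours. Calb2 and Muc16 had ratios of 0.336 (0.00731 to 2.77) and 1.01 (0.311 to 2.90), which left the direction undetermined at this depth. The exocrine pancreas sum was also higher in tumour 14B than in tumour 14A (159989 and 22203 CPM), while the 11 leukocyte markers summed to 5440 CPM in tumour 14B and 5567 CPM in tumour 14A, with a mean log2 CPM per marker of 6.71 in tumour 14B and 7.89 in tumour 14A. Leukocyte markers summed to 985 to 1513 CPM in the other Pak2-/- tumours and to 606 to 1345 CPM in the wild-type tumours, and the part of pancreas and leukocyte RNA in the member levels was not tested.

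**Figure D4:**
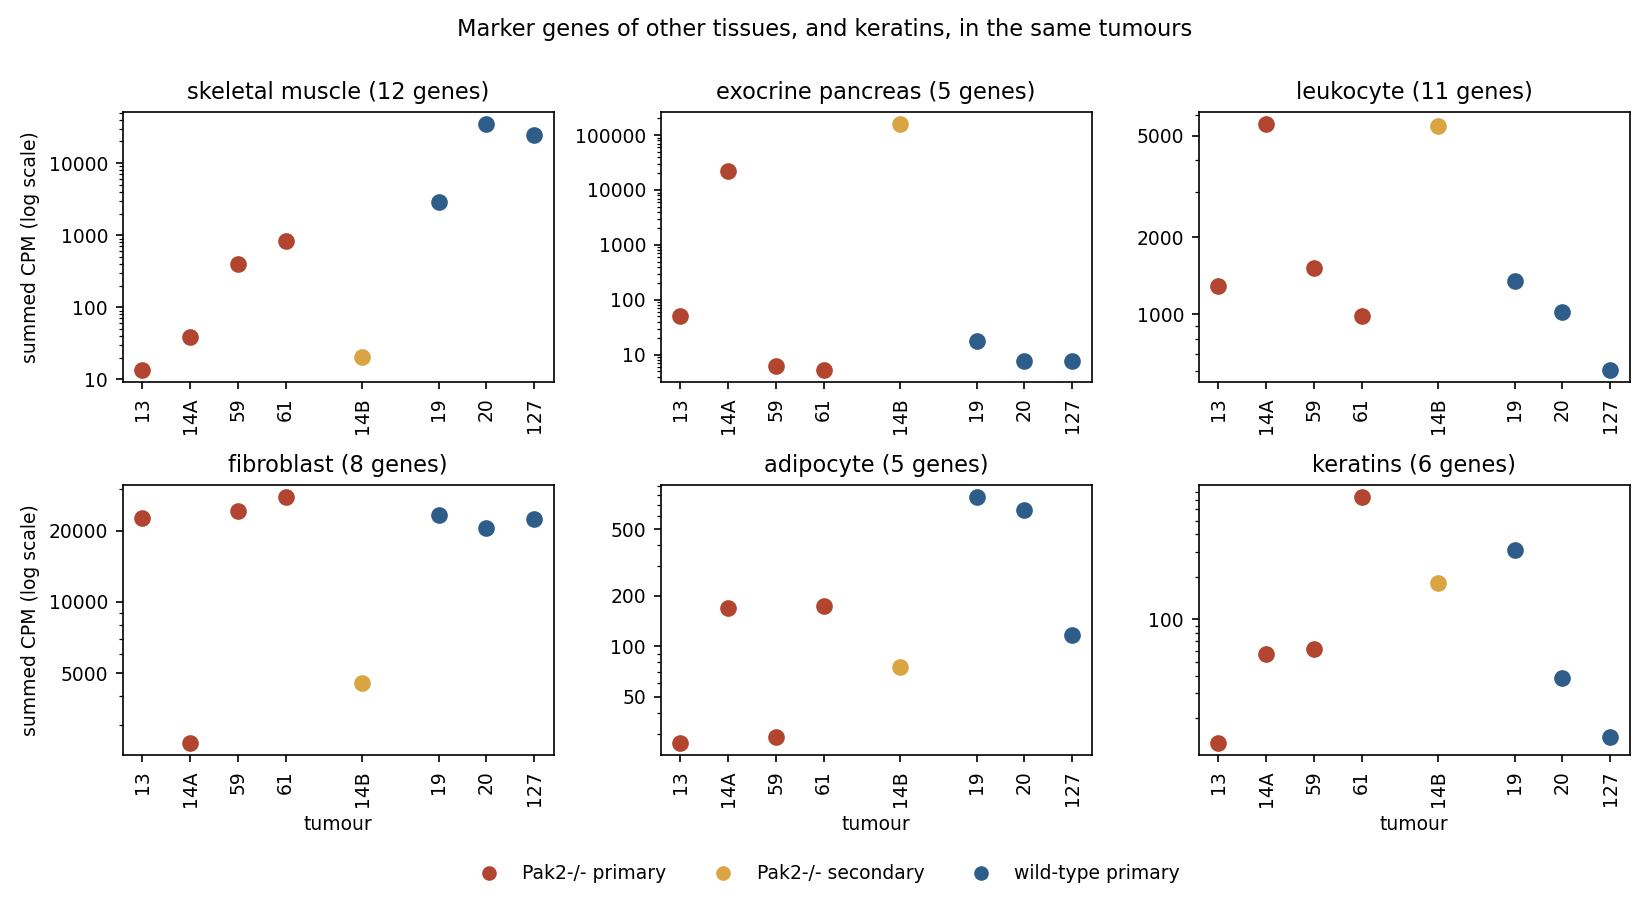
Summed CPM (log axis) of marker genes of 5 other tissues or cell types, and of 6 keratin genes, in each tumour. Tumours 14A and 14B are high in exocrine pancreas and leukocyte markers and low in fibroblast markers, wild-type tumours 20 and 127 are highest in skeletal muscle markers, and keratins are highest in tumours 61 and 19.

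Keratins, which mesothelial cells share with other epithelia, were high in 3 of the 4 tumours with high uroplakins. The 6 keratin genes summed to 13.3, 57.3, 61.3 and 735 CPM in tumours 13, 14A, 59 and 61, to 179 CPM in tumour 14B and to 310, 38.5 and 14.7 CPM in tumours 19, 20 and 127. In tumour 61 most of the sum was Krt14 (443 CPM), Krt8 (181 CPM) and Krt5 (91.4 CPM), the keratins 14 and 5 being those of basal stratified epithelium. In tumour 19 it was Krt18 (99.2 CPM), Krt19 (68.0 CPM) and Krt8 (54.1 CPM). Krt7 stood at 0.926 to 5.50 CPM in Pak2-/- primary tumours, at 13.6 CPM in secondary tumour 14B and at 2.79 to 33.8 CPM in the wild-type tumours. None of the 6 passed edgeR's test, with a lowest adjusted p of 0.434 (Krt19), and 0 had an unadjusted p under 0.05, beside 0.0714% and 12.9% of all genes.

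A further list of 26 mesothelial genes, of which 23 were tested, held 0 genes called by edgeR after Benjamini-Hochberg adjustment, with 1 higher and 2 lower at an unadjusted p under 0.05, where all genes gave 4.39% higher and 8.55% lower. Of these 23 genes 11 had a higher and 12 a lower estimate in the Pak2-/- tumours, with a median log2 fold change of -0.03. Rarres2, which encodes the chemoattractant chemerin, stood at 1.36, 10.7, 10.4 and 6.82 CPM in tumours 13, 14A, 59 and 61, at 8.81 CPM in tumour 14B and at 58.0, 28.2 and 15.9 CPM in tumours 19, 20 and 127. Its groups did not overlap, as in 14.0% of all genes (log2 fold change -2.20, SE 0.72, adjusted p = 0.243 by edgeR), and DESeq2, which called 7.46% of all genes, gave it an adjusted p of 0.0451. Aldh1a1, a retinaldehyde dehydrogenase gene, was also lower in every Pak2-/- primary tumour, with 0, 6.27, 4.07 and 6.64 CPM in tumours 13, 14A, 59 and 61, 23.0 CPM in tumour 14B and 30.6, 57.4 and 20.2 CPM in tumours 19, 20 and 127. Its log2 fold change was -3.07 (SE 1.17, adjusted p = 0.327 by edgeR). The adipocyte marker sum was 26.4 to 174 CPM in the Pak2-/- primary tumours and 116 to 777 CPM in the wild-type tumours, and its part in these levels was not tested.

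Other genes of this list also varied by tumour, some of them in other patterns than the members. Rspo1, an R-spondin that strengthens Wnt signalling, stood at 0.124, 5.55, 0.247 and 6.35 CPM in tumours 13, 14A, 59 and 61, at 12.5 CPM in tumour 14B and at 32.8, 3.23 and 3.27 CPM in tumours 19, 20 and 127, high in the same 4 tumours as the uroplakins. Aldh1a2, which makes retinoic acid in mesothelium, reached 92.7 CPM in tumour 14A and 77.3 CPM in tumour 14B and lay between 4.33 and 12.2 CPM elsewhere. The lectin gene Itln1 reached 4.73 and 6.22 CPM in tumours 14A and 14B, against at most 0.835 CPM elsewhere. Aldh1a2 and Itln1 were thus highest in the tumours with pancreas RNA, and the part of that tissue was not tested. Efemp1, a fibulin gene, stood at 339, 14.8, 527 and 279 CPM in tumours 13, 14A, 59 and 61, at 75.2 CPM in tumour 14B and at 131, 35.3 and 10.7 CPM in tumours 19, 20 and 127, and Dmkn reached 53.3 CPM in tumour 61. The estimate was 2.32 (SE 1.21) for Efemp1, 2.59 (SE 1.38) for Dmkn and -0.88 (SE 0.48) for the sialomucin gene Podxl, log2 fold changes that edgeR did not call. That of Dmkn was 0.87 without tumour 61, and that of Efemp1 was 3.68 without tumour 19. Of the 26 genes, 10 had their lowest level in tumour 13 and 9 their highest in tumour 19. Rspo1, Aldh1a2 and Itln1 were chosen after their values were seen.

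Among proteins that bind podoplanin, the linker genes and Cd44 had higher estimates in the Pak2-/- tumours without passing the main edgeR test. Cd44, a hyaluronan receptor that associates with podoplanin, stood at 810, 232, 490 and 272 CPM in tumours 13, 14A, 59 and 61, at 318 CPM in tumour 14B and at 121, 174 and 127 CPM in tumours 19, 20 and 127. Every Pak2-/- tumour lay above every wild-type tumour, with a log2 fold change of 1.71 (SE 0.50) and an adjusted p of 0.190 by edgeR. Of 18 alternative settings 2 called Cd44. The primary groups did not overlap in 14.0% of all genes, with the Pak2-/- tumours higher in 782 of the 15412 tested. Msn, the gene of the membrane-to-actin linker moesin, stood at 1633, 1617, 703 and 774 CPM in tumours 13, 14A, 59 and 61, at 2246 CPM in tumour 14B and at 516, 471 and 593 CPM in tumours 19, 20 and 127, a log2 fold change of 1.19 (SE 0.42, adjusted p = 0.286 by edgeR). Those of Ezr (ezrin), Lgals8 (galectin-8), Clec1b (CLEC-2) and Cd9 were 1.11 (SE 0.41), 0.31 (SE 0.20), 0.996 (SE 1.39) and -0.15 (SE 0.46). In this list of 6 genes 0 passed edgeR's test and 3, all higher, had an unadjusted p under 0.05. Of all genes 12.9% had such a p, 4.39% of them all being higher.

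The paralogues of the members, listed together with the membrane mucin genes Muc1 and Muc4, ranged from absent to abundant. Lrrn1, the relative of Lrrn4 known from the developing nervous system, stood at 0.0619, 0.308, 3.33 and 3.75 CPM in tumours 13, 14A, 59 and 61, at 10.2 CPM in tumour 14B and at 5.70, 92.6 and 302 CPM in tumours 19, 20 and 127. It was highest in the wild-type tumours with the most skeletal muscle RNA, tumours 20 and 127, and the part of that tissue was not tested. Its log2 fold change was -6.14 (SE 1.60, adjusted p = 0.152 by edgeR), with an adjusted p of 2.4e-04 by DESeq2, which called 7.46% of all genes. It was -4.71 without tumour 127 and -1.57 without tumours 20 and 127 (adjusted p = 0.871 by edgeR). Lrrn2 averaged 3.75 ± 1.83 CPM in Pak2-/- primary tumours and 9.51 ± 3.52 CPM in wild-type ones (log2 fold change -1.32, SE 0.57), and Lrrn3 averaged 1.94 ± 1.09 CPM in Pak2-/- primary tumours and 0.982 ± 0.740 CPM in wild-type ones (0.99, SE 0.89). Muc1 was at -1.75 (SE 1.13), at -0.85 without tumour 19 and at -3.47 without tumour 14A. Gpm6b, the proteolipid gene related to Gpm6a, was transcribed in all tumours at 8.79 to 72.1 CPM, with an estimate of 0.05 (SE 0.65), and that of Bnc2 was 0.22 (SE 0.64). Of the 13 genes in this list, mucins included, 6 were tested and 0 passed edgeR's test. Only 1 (Lrrn1) had an unadjusted p under 0.05, where 12.9% of all genes did.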

How the data were processed

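Whole-gene read counts of 8 mouse tumours were analysed. The authors deposited raw counts per gene with a gene length, 1 column per tumour and none pooled; STAR, HTSeq, GRCm38 and mm10 are named in the submitters' processing notes. Versions, annotation release and strand setting were not given in the sources used. The table held 8 count columns, 0 columns of other samples, 0 entries naming no gene and 0 identical columns.

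The 4 Pak2-/- primary tumours were set against the 3 wild-type primary tumours with edgeR 4.0.16 (quasi-likelihood test, TMM, no covariate, filterByExpr with minimum count 10 and minimum total 15) in R 4.3.3, which left 15412 genes, with Benjamini-Hochberg adjustment at 0.05. SE was taken as the absolute log2 fold change over the root of F. CPM used TMM factors over all 8 tumours, and log2 CPM a prior count of 2. TPM were computed from the deposited counts and gene lengths. Tumour 14B entered no test. Intervals and floors describe counting error alone, because PCR copies count as reads. Alternatives used DESeq2 1.42.0 and limma 3.58.1, and the functions were tested on simulated data. Transcripts of 9 members in GENCODE M21 (Muc16 is not in it) had no copy elsewhere with at least 95% identity over 80% of its length, and the only shared exon sequence was 98 bases of Bnc1, under a pseudogene with 0 counts. Promoters are from RefSeq (GRCm38.p6).

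Members and lists were chosen with earlier results of these data known. Named genes are the members, up to 6 tested genes with the lowest p of each of 4 further lists, the paralogues, and the 3 nearest protein-coding genes (mean log2 CPM at least 1) of each tested member; Rspo1, Aldh1a2 and Itln1 were added after their values were seen. Adgre1, of the leukocyte list, was not found under this name.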

Additional observations from a re-analysis of the deposited data

Results flagged for a closer look

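In 7 of the 33 genes examined, 1 of the 4 Pak2-/- primary tumours lay so far from the other 3 that its gap to the nearest of them, divided by the range of the group, exceeded Dixon's 95% critical value. Chance gives such a gap in about 1 of 20 groups of independent, normally distributed values. CPM need not be so distributed, and some of the genes were chosen by p in the same tumours. The rate may therefore not hold for these genes. Of the 10 mesothelial identity genes only Calb2 was among them, in tumour 14A (gap over range 1), where the other 3 tumours had 0 counts and tumour 14A 6; with ties at 0 the ratio is 1 for any count, so the chance rate does not apply to it. Of the keratins, 3 were highest in tumour 61, Krt14 (443 CPM, gap 0.994), Krt5 (91.4 CPM, gap 0.970) and Krt8 (181 CPM, gap 0.866). The mucin gene Muc1 (3.80 CPM, gap 0.897), the galectin gene Lgals8 (134 CPM, gap 0.889) and the podoplanin receptor gene Clec1b (4.47 CPM, gap 0.876) were highest in tumour 14A, which also had the highest exocrine pancreas and leukocyte marker sums of the primary tumours (22203 and 5567 CPM). Groups of 3 were not examined.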

How the results depend on the processing

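No member passed under any of the 18 alternatives run on all of them, the lowest adjusted p being 0.131 (Gpm6a, limma-voom with quality weights). Of 145 member estimates under alternatives 130 kept their sign. The count of all genes called moved far more, from 11 to 33 with a minimum count of 30, 1149 by DESeq2, 25 by limma-voom, 950 with quality weights, 0 without wild-type tumours 20 and 127 and 233 with tumour 14B added, and from 0 to 59 with 1 tumour left out (0 without tumour 13, 59, 61 or 20, 1 without 127, 8 without 14A and 59 without 19). Of the 26 further mesothelial genes DESeq2 called 1 (Rarres2) and limma-voom with quality weights 2 (Ezr and Efemp1). Cd44, of the podoplanin list, was called under 2 of its 18 alternatives.

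Signs that turned were, by limma-voom, those of Msln (-0.46), Krt8 (-0.50), Krt5 (-0.77), Bnc2 (-0.24), Gpm6b (-0.22) and Clec1b (-0.57), and with quality weights those of Wt1 (0.25), Upk1b (0.23), Krt18 (0.65), Clec1b (-1.07) and Cd9 (0.084). With tumour 14B added they were those of Upk3b (0.53), Upk1b (0.12), Muc1 (0.68) and Gpm6b (-0.14), and without tumours 20 and 127 those of Bnc1 (-0.020), Krt5 (-0.10) and Cd9 (0.057). With 1 tumour left out, log2 fold changes ran from -0.0066 to 1.49 (Msln), -1.10 to 1.05 (Wt1), -0.94 to 1.45 (Upk3b), -0.91 to 2.13 (Upk1b), -1.53 to 1.16 (Lrrn4) and -0.068 to 0.88 (Pdpn). They ran from -3.08 to 0.44 (Krt19), -2.50 to 0.060 (Krt7), -2.20 to 4.86 (Krt14), -1.11 to 2.93 (Krt8), -2.04 to 1.18 (Krt18), -3.26 to 5.63 (Krt5), -0.095 to 0.58 (Bnc2), -0.61 to 0.37 (Gpm6b), -1.14 to 1.41 (Clec1b) and -0.44 to 0.14 (Cd9). The cause was not tested. A prior count of 0.5 moved the mean log2 CPM of the members by less than the spread between tumours. No paired analysis was possible because the groups share no replicate number.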
